A study of Mus musculus with 21 samples.

Results

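Monocyte-derived cells that lived in the mouse brain were compared with the brain's own microglia in animals that had received saline. The comparison holds 5 of the 21 RNA-seq libraries of the study, selected by the group named in their labels, and all genes that passed a filter on low counts. The 3 libraries called MLC held transplanted monocyte-derived microglia of the genotype Osb-GFP. The 2 libraries called NoTx held microglia of mice with no transplant and the genotype CX3CR1-CreER+/-; CSF1R fl/fl, with a tamoxifen-dependent Cre driven by the Cx3cr1 promoter and both Csf1r alleles floxed. Whether Cre was induced in those mice, and which markers the sort used, the sources used here do not give. Genotype, transplantation and cell origin therefore differ together between MLC and NoTx and cannot be told apart. The other saline group, 3 libraries of transplanted microglia called MG (Osb-GFP), shares genotype and transplantation with MLC and is given beside the results. The seizure libraries used below were taken 5 days after kainic acid (6 MLC and 3 NoTx libraries, with the same genotypes as after saline). All saline libraries were labelled batch 2 and all seizure libraries batch 1. The labels call the libraries biological replicates, and the sources used here do not give which came from separate animals, so p-values measure the spread between libraries. That spread was estimated from all 21 libraries, which lie in both batches, and not from the 5 compared libraries alone. Of the 6 MLC seizure libraries, 2 have names that repeat the sex-and-number code of another, so that some may share an animal and p-values after seizure may be too small. By their names the seizure groups hold libraries of both sexes.

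Microglia are the macrophages of the brain tissue and arise from yolk sac precursors, whereas monocytes are made in the bone marrow. Bone marrow cells that enter a brain with an empty microglial niche take on the shape and many transcripts of microglia. They are known to keep a distinct set of macrophage transcripts, among them Apoe and the Ms4a genes, and to lack the transcription factor Sall1, which holds microglial identity.

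The 5 libraries held 36.53 M to 50.32 M estimated counts, with 17893 to 21988 genes detected in each. Log2 CPM (counts relative to library size, here scaled by TMM) correlated at 0.909 to 0.922 among the MLC libraries, at 0.938 between the NoTx libraries and at 0.859 to 0.895 between the groups. Xist was between 0.452 and 2.05 CPM in all 5 libraries and the Y-linked gene Ddx3y between 209 and 353 CPM, and the groups overlapped in both. The MG libraries had 305.5 to 407.7 CPM of Xist and 0.472 to 54.9 CPM of Ddx3y, so sex and kind of cell cannot be told apart where MG values stand beside those of MLC and NoTx. No gene in the table was named GFP or Cre (0), so the reporter and the recombinase were not read.

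The genes in the NoTx genotype were read first. Csf1r, whose signal keeps microglia alive, had 2210, 1389 and 7679 CPM in MLC replicates 1 to 3 and 2925 and 745 CPM in NoTx replicates 1 and 2. Cx3cr1, which binds the neuronal chemokine fractalkine, had 2522, 2180 and 7946 CPM in MLC and 2768 and 987 CPM in NoTx. For both genes the groups overlapped, and of the 5 libraries MLC replicate 3 was the highest and NoTx replicate 2 the lowest. MG libraries had 5730 to 11794 CPM of Csf1r and 8050 to 10836 CPM of Cx3cr1, above both NoTx libraries. The log2 fold change of MLC over NoTx was 1.03 for Csf1r (SE 0.84, edgeR adjusted p = 0.99) and 1.17 for Cx3cr1 (SE 0.67, adjusted p = 0.75). For Csf1r it was 0.00 without MLC replicate 3. After seizure Csf1r was called lower in MLC (-2.11) and Cx3cr1 was not called (-0.88). The difference between the treatments was not called for either gene. Counts of the whole gene do not show whether the floxed part was deleted.

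MLC differed from NoTx in 237 of 18867 genes tested (1.26%), at a Benjamini-Hochberg adjusted p under 0.05 in edgeR's quasi-likelihood test. In MLC, 84 genes were higher (0.445%) and 153 were lower (0.811%). At an unadjusted p under 0.05 there were 1525 genes. The changes were large, with a median log2 fold change of 4.20 among the genes that were higher and -5.58 among those that were lower, against 0.08 over all genes tested. The smallest called changes were 1.30 and 1.34 on the log2 scale, higher and lower. All 237 genes had no overlap between the 3 MLC and the 2 NoTx libraries, which also held for 6282 of all genes tested (33.3%), with MLC above NoTx in 15.3% and below in 18%. Without NoTx replicate 1 the test called 13 genes higher and 88 lower, and without NoTx replicate 2 it called 17 higher and 62 lower. Either leaves NoTx with 1 library, which is then assumed to vary like the other groups, and this holds for each count given below without a NoTx library. In a fit of the 8 saline libraries alone, 421 genes were higher and 470 lower, and these held 83 of the 84 and 152 of the 153 genes.

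**Figure D1:**
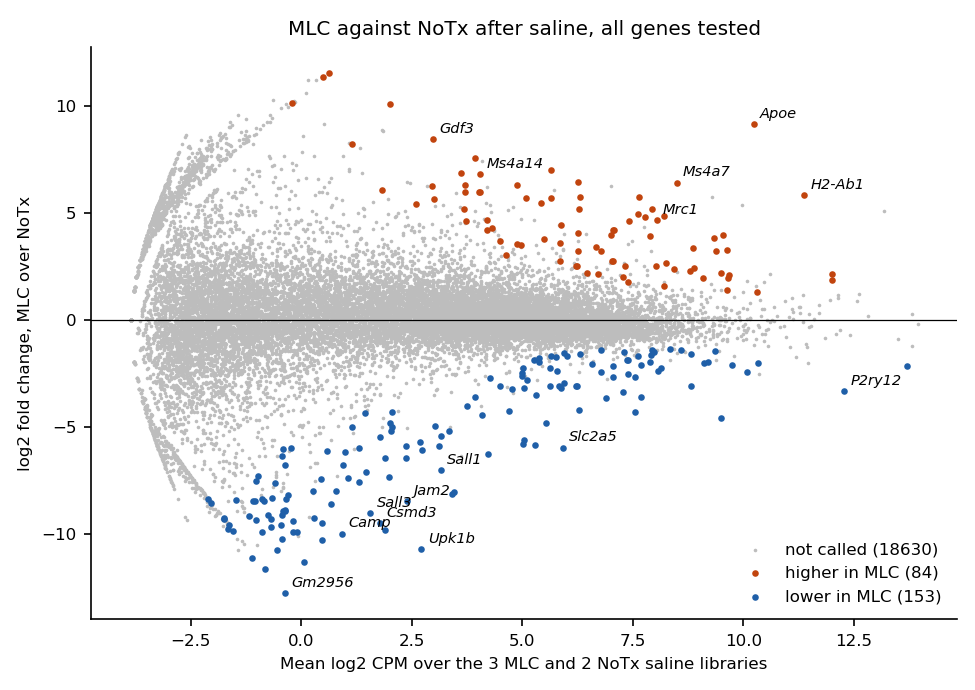
Log2 fold change of MLC over NoTx after saline (vertical axis) against the mean log2 CPM over the 5 libraries (horizontal axis), 1 point per gene tested. Red points are the 84 genes called higher in MLC, blue points the 153 called lower and grey points the genes not called. Called genes lie far from 0, and those that were lower reach further down among genes of low mean level.

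Several genes of microglial identity were low in MLC. Sall1, a zinc finger transcription factor, had 2.54, 0.351 and 1.58 CPM in MLC and 273 and 113 CPM in NoTx. Sall3, its relative, had 0.217, 0.216 and 0.170 CPM in MLC and 102 and 111 CPM in NoTx. MLC thus held traces of either transcript, while the MG libraries had 263 to 429 CPM of Sall1 and 103 to 112 of Sall3, in the range of NoTx or above it. The log2 fold changes were -7.01 for Sall1 (SE 0.72, edgeR adjusted p = 3.1e-06) and -9.02 for Sall3 (SE 0.97, adjusted p = 4.7e-06). Reads of Sall1 cannot be told apart from those of the antisense gene that RefSeq lists as Sall1os, since the sources used here do not give the strand setting of the counting. P2ry12, the ADP receptor that guides microglial processes, had 2441, 1634 and 1934 CPM in MLC and 18221 and 21861 CPM in NoTx. MLC thus kept a high level of P2ry12 that was well below that of NoTx. Its log2 fold change was -3.32 (SE 0.31, adjusted p = 6.9e-07).

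The gene lists used here and below were chosen with earlier results of these data known, so their counts are not independent of these data. Each list count here and below stands against 0.445% higher and 0.811% lower of all genes tested. Of the 30 tested genes in a list of homeostatic microglia, 10 were lower in MLC and 0 higher, with a median log2 fold change of -1.16. Besides Sall1, Sall3 and P2ry12 these were the lectin Siglech, the matrix protein Sparc, the chemotaxis regulator Ecscr, the fructose transporter Slc2a5, the protease inhibitor Cst3, the lens crystallin Crybb1 and Ltc4s, the synthase of leukotriene C4. Sparc had 195, 211 and 206 CPM in MLC and 3924 and 5893 in NoTx. Slc2a5 had 9.10, 6.58 and 23.5 CPM in MLC and 1089 and 524 in NoTx. Both sets of libraries were far apart, with log2 fold changes of -4.59 for Sparc (SE 0.38, edgeR adjusted p = 1.8e-07) and -5.95 for Slc2a5 (SE 0.87, adjusted p = 0.00037). Other members of the list did not pass. Tmem119, a widely used microglial surface marker, had 1848, 1180 and 3824 CPM in MLC against 3375 and 586 in NoTx, which overlapped. Tyrobp, the adaptor of Trem2, and Aif1, which encodes Iba1, had log2 fold changes of 0.03 and 0.07. Without NoTx replicate 2 the count of lower members was 7, and without NoTx replicate 1 it was 10.

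A list of genes known to be higher in microglia than in marrow-derived brain macrophages had 17 of 27 tested members lower and 0 higher, with a median of -4.59. This list was chosen with earlier results of these data known, and 0.811% of all genes tested were lower and 0.445% higher. Its members at the bottom were nearly off in MLC. Upk1b, a tetraspanin of the urothelial plaque, had 0.261, 0.432 and 0.226 CPM in MLC and 452 and 557 CPM in NoTx. That is a log2 fold change of -10.68 (SE 0.63, edgeR adjusted p = 7.1e-10), with MG libraries at 75.4 to 159 CPM. Csmd3, a large protein with CUB and sushi domains, had 0.196, 0.378 and 0.0942 CPM in MLC and 133 and 185 CPM in NoTx (-9.48, SE 0.76, adjusted p = 1.5e-07). Hspb3, a chaperone of the small heat shock family (-9.46, SE 0.89) and the vesicle transport adaptor Mlph (-7.99, SE 1.45) followed. Nav3, which binds microtubules, Slc1a3, a glutamate transporter shared with astrocytes, and Adora3, an adenosine receptor, lay between -4.78 and -5.79. Without NoTx replicate 1 the count was 16 members and without NoTx replicate 2 it was 15.

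Of the abundant genes that were lower (mean log2 CPM of at least 4), the 12 with the largest changes also held Ccl9, a chemokine, at 5.76, 1.35 and 3.81 CPM in MLC and 221 and 330 in NoTx. Its log2 fold change was -6.24 (SE 0.56, edgeR adjusted p = 6.9e-07). Serpine2, an inhibitor of thrombin and related proteases, had 79.5, 28.6 and 72.2 CPM in MLC against 1156 and 1209 in NoTx. Neither gene had overlapping libraries. The tetraspanin Tspan7 (-4.19), the hydroxylase Asph (-3.64), the lymphocyte-regulated X-linked gene Xlr (-4.45) and the GTPase Gimap6 (-4.26) followed. Xlr was not called without NoTx replicate 2 or without MLC replicate 2 or 3, and Gimap6 was not called without any 1 of the 5 libraries. Among integrins and adhesion molecules 3 of 26 tested members were lower and 1 higher (0.811% and 0.445% of all genes tested). The list median was -0.44. Jam2, a junctional adhesion molecule, had 0.217, 0.324 and 0.998 CPM in MLC and 182 and 190 in NoTx, and the beta chain Itgb3 had a log2 fold change of -6.10 (SE 1.11). The endothelial and myeloid adhesion molecule Pecam1 was lower as well (-5.00, SE 1.17), and the alpha L chain Itgal of LFA-1 was higher (4.68, SE 0.96). Without either NoTx library in turn, Pecam1 and Itgal were not called, nor was Pecam1 without MLC replicate 1 or 3 and Itgal without MLC replicate 3. Ldhb, a subunit of lactate dehydrogenase, was the only member of 27 tested glycolysis and hypoxia genes to pass, at -3.07 (SE 0.34, adjusted p = 8.3e-06).

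**Figure D2:**
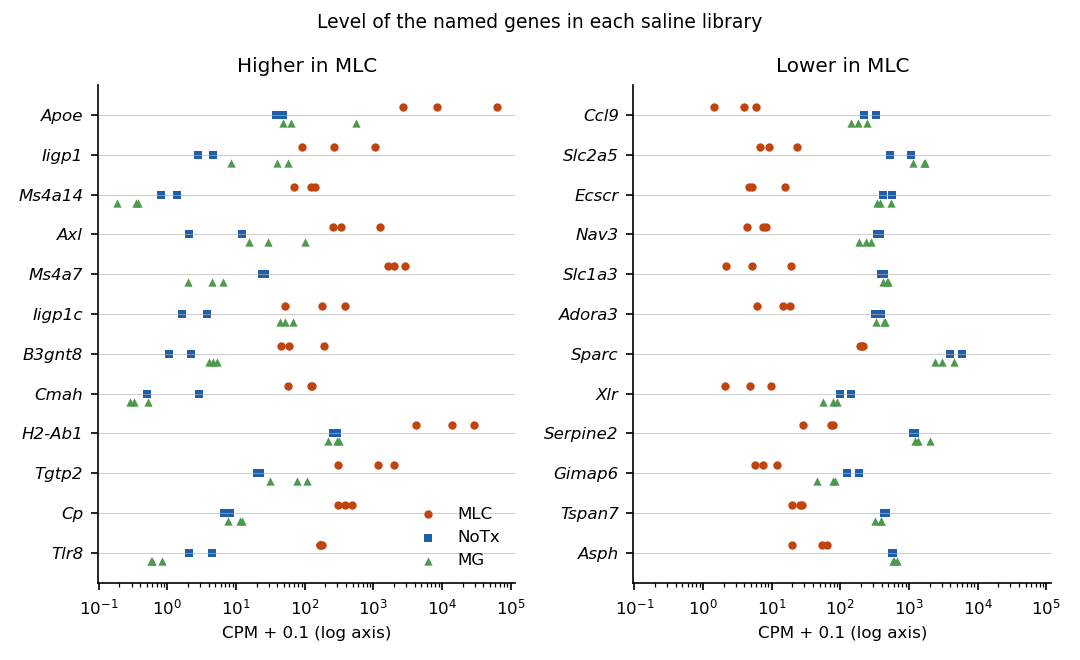
CPM plus 0.1 on a log axis for the 12 genes with the largest changes per direction among abundant genes, 1 point per saline library. MLC libraries are red circles, NoTx libraries blue squares and MG libraries green triangles. No MLC point overlaps the NoTx points of its gene, by the rule that chose the genes. The MLC libraries of Apoe span 2671 to 62324 CPM.

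Genes of marrow-derived macrophages were high in MLC. A list of genes known to be higher in marrow-derived brain macrophages than in microglia had 24 of 40 tested members higher and 0 lower, with a median log2 fold change of 3.93. It too was chosen with earlier results of these data known, and 0.445% of all genes tested were higher and 0.811% lower. Ms4a7, a tetraspan membrane protein, had 2859, 1985 and 1645 CPM in MLC and 26.1 and 24.1 CPM in NoTx. Ms4a14 had 124, 141 and 70.4 CPM in MLC and 0.709 and 1.26 CPM in NoTx. Both were clear of the NoTx libraries, with log2 fold changes of 6.43 (SE 0.93, edgeR adjusted p = 0.0003) and 6.83 (SE 0.71, adjusted p = 3.5e-06). Across the whole Ms4a family 4 of 11 tested members were higher and 0 lower, and without either NoTx library in turn 2 were higher, with Ms4a4a and Ms4a6c not called. Gdf3, a ligand of the TGF-beta family, had 67.4, 60.1 and 131 CPM in MLC against 0.0472 and 0.437 in NoTx (8.47, SE 1.30, adjusted p = 0.0006), the only call among 22 tested TGF-beta genes. Without NoTx replicate 1 the count of the macrophage list was 4, and without replicate 2 it was 9.

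Receptors of the lectin and paired immune type were among the genes that were higher, with 5 of 34 tested and 0 lower. Over all genes tested the shares were 0.445% and 0.811%. Klra2, a Ly49 receptor whose reads may be shared with near copies, had 235, 407 and 188 CPM in MLC and 2.10 and 8.35 CPM in NoTx (log2 fold change 5.73, SE 0.86, edgeR adjusted p = 0.00049). The inhibitory receptor Lilrb4a had 885, 1325 and 940 CPM in MLC and 28 and 29.1 CPM in NoTx (5.20, SE 0.71, adjusted p = 0.00019). The lowest MLC library was far above the highest NoTx library for both. Clec12a, an inhibitory receptor for uric acid crystals, had a log2 fold change of 4.21, with 8.20 and 44.9 CPM in NoTx and at most 0.932 CPM in MG. The beta-glucan receptor Clec7a (2.15, SE 0.52) and its relative Clec4n (4.30, SE 0.87) were higher too. The chemokine receptor Ccr1 had 900, 695 and 753 CPM in MLC and 23.1 and 26.8 in NoTx (4.97, SE 0.74, adjusted p = 0.0004), and was the only member called of 30 tested chemokine and cytokine receptors. Cmah, which makes the sialic acid Neu5Gc, was at 123, 56.4 and 128 CPM against 2.83 and 0.409 (5.98, SE 0.94), and Tlr8, a sensor of single-stranded RNA, at 177, 168 and 166 CPM against 1.98 and 4.42 (5.73, SE 1.15). Tlr8, Clec4n and Clec7a were not called without either NoTx library in turn, and the count of the receptor list was 2 without NoTx replicate 1 and 3 without replicate 2.

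Markers of macrophages at the borders of the brain (meninges and perivascular space) had 8 of 22 tested members higher and 0 lower. The list median was 3.27, and 0.445% of all genes tested were higher and 0.811% lower. Mrc1, the mannose receptor, had 844, 795 and 1299 CPM in MLC and 43.5 and 33.8 CPM in NoTx. Pf4, a platelet and macrophage chemokine, had 283, 111 and 232 CPM in MLC, 8.93 and 10.3 in NoTx and at most 0.661 in MG. Their log2 fold changes were 4.66 (SE 0.94, edgeR adjusted p = 0.009) and 4.44 (SE 0.76, adjusted p = 0.0019). Ccl8, Ccl7, Cd38, Clec4n, Ms4a7 and Cp, the copper ferroxidase ceruloplasmin, made up the rest of the 8. The count was 1 without either NoTx library in turn. In 4 other members every MLC library was below both NoTx libraries, as in 18% of all genes tested, and none of the 4 passed. These were Lyve1, a receptor for hyaluronan (log2 fold change -7.50, adjusted p = 0.18), the lectin Cd209f (-6.34, adjusted p = 0.21), the coagulation factor subunit F13a1 (-3.38, adjusted p = 0.66) and the lectin Clec10a (-1.22, adjusted p = 1). Lyve1 had at most 0.0217 CPM in MLC and 3.59 and 0.601 CPM in NoTx, and F13a1 had 14.9, 4.05 and 18.3 CPM in MLC and 86.5 and 172 in NoTx.

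Apoe, the lipid carrier of the brain, had 62324, 2671 and 8570 CPM in MLC and 48.1 and 37.7 CPM in NoTx. The MLC libraries differed widely among themselves, and the lowest was still far above NoTx. The log2 fold change was 9.16 (SE 1.58, edgeR adjusted p = 0.002), and it was 9.35 (adjusted p = 0.068) without NoTx replicate 1 and 8.99 (adjusted p = 0.095) without replicate 2. With another tool, limma-voom with quality weights, Apoe was not called (adjusted p = 0.38). In the list of lipid and cholesterol handling 4 of 38 tested members were higher and 0 lower (0.445% and 0.811% of all genes tested). The list median was 0.72, and the 4 were Apoe, its neighbour Apoc4, and the scavenger receptors Msr1 and Cd36. In iron and heme handling 3 of 17 were higher, namely Cp, the ferritin heavy chain Fth1 (2.22, SE 0.51) and Spic, a transcription factor of iron-recycling macrophages, at 38, 47.6 and 31.9 CPM against 1.09 and 0.437. Axl, a receptor for dying cells, had 334, 259 and 1242 CPM in MLC and 12 and 1.99 in NoTx (6.44, SE 1.44), with 15.5 to 102 CPM in MG. Among 28 tested genes of disease-associated microglia 6 were higher (Apoe, Axl, Clec7a, Lilrb4a, Itgal and Cd63) and 3 lower (Cd9, Ctsl and Ccl6). Without either NoTx library in turn, 0 of the lipid and 0 of the iron genes passed, and 1 of the disease-associated genes was higher. Of the latter, 2 were lower without NoTx replicate 1 and 1 without replicate 2.

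Of 13 tested genes of class II antigen presentation 2 were higher in MLC and 0 lower, with a median log2 fold change of 2.05. Of 22 class I genes 3 were higher and 0 lower, with a median of 1.65. Both counts stand against 0.445% higher and 0.811% lower of all genes tested. H2-Ab1, the class II beta chain, had 14027, 29714 and 4253 CPM in MLC and 293 and 257 CPM in NoTx. MLC replicate 2 was the highest and replicate 3 the lowest, and all were far above NoTx (log2 fold change 5.86, SE 1.43, edgeR adjusted p = 0.041). The invariant chain Cd74, at 35718, 85970 and 12867 CPM in MLC and 1471 and 1129 in NoTx, missed the threshold (5.11, SE 1.31, adjusted p = 0.058). H2-K1, a classical class I heavy chain, had 1730, 2043 and 1185 CPM in MLC and 188 and 161 in NoTx (3.24, SE 0.66, adjusted p = 0.01). MG libraries had 601 to 728 CPM of H2-K1, above NoTx and below MLC. H2-D1 (3.97, SE 0.93) and the peptide transporter Tap1 (2.78, SE 0.69) also passed. Reads of class I heavy chains may be shared between near copies. Without either NoTx library in turn, 0 genes of the 2 presentation lists passed, and in the fit of the 8 saline libraries alone 7 class II and 10 class I genes did.

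In a list for the type I interferon response, 3 of 47 tested members were higher and 0 lower (0.445% and 0.811% of all genes tested), with a median of 1.77. Of the 47, 44 were above 0, against 53.2% of all genes tested. In 35 every MLC library was above both NoTx libraries, against 15.3% of all genes tested. Bst2 (tetherin), which holds budding virions, had 512, 572 and 491 CPM in MLC and 76.0 and 107 CPM in NoTx (log2 fold change 2.52, SE 0.39, edgeR adjusted p = 0.0006). Ifi44, an interferon-induced protein, was called too (6.08, SE 1.43, adjusted p = 0.031). In the fit of the 8 saline libraries alone 17 members were higher, and without NoTx replicate 1 there were 0 and without replicate 2 there was 1. The immunity-related GTPases Iigp1 (7.04, SE 1.66), Iigp1c (6.30, SE 1.17) and Tgtp2 (5.76, SE 1.17), which act on the vacuoles of parasites and have near copies, were among the 12 abundant genes furthest up, with Tgtp2 at 1156, 2010 and 305 CPM against 22.2 and 20.4. None of these 3 was called without either NoTx library in turn. MLC replicate 2 was the highest library and replicate 3 the lowest for Tgtp2, as for H2-Ab1. The 13 tested PYHIN DNA sensors had a median of 3.21 and all were above 0, as were 53.2% of all genes tested. Of the 13, 3 were higher, against 0.445% of all genes tested: Mndal at 166, 265 and 103 CPM against 6.28 and 22.5, Ifi204 and Ifi207. The count was 0 without NoTx replicate 1 and 1 without replicate 2. Cybb, the electron-carrying core of the phagocyte oxidase, was the only one of 7 oxidase genes to pass, at 2373, 2093 and 1923 CPM against 92.0 and 352 (3.26, SE 0.56, adjusted p = 0.0019). Without NoTx replicate 1 the adjusted p was 0.2 for Mndal and 0.071 for Cybb.

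The sequence before the start site was read for these genes, because interferon-stimulated genes carry a response element, GAAA followed by 2 bases of any kind and GAAA again, bound by interferon regulatory factors. RefSeq (build GRCm38.p6) gave an upstream sequence for 63 of the 84 higher genes, and 6 of them (9.52%) held the motif on either strand within 250 bases, against 4 of 108 lower genes (3.70%) and 393 of 11375 tested genes (3.45%). In the interferon and PYHIN lists it was found in 24 of 44 genes (54.5%). A gene counted once, however many matches it held. The 250 bases before the start are shown for 5 of the 6, those that belong to a list or to the 12, with matches in capitals; the sixth was Arhgap15. Bst2 is at chr8:71537473-71537722 (minus strand), Cybb at chrX:9469325-9469574 (minus strand), Ifi207 at chr1:173741810-173742059 (minus strand), Mndal at chr1:173880188-173880437 (minus strand) and Tgtp2 at chr11:49064213-49064462 (minus strand), each written 5′ to 3′ along the gene. In Cybb the first 2 matches read TTTC, 2 bases and TTTC, the motif on the opposite strand. A match is a description of letters, not a bound site.
Bst2: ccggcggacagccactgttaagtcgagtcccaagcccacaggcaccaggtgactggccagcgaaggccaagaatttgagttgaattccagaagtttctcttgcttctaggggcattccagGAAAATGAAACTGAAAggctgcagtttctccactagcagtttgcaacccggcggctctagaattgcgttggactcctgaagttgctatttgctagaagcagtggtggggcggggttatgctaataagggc
Cybb: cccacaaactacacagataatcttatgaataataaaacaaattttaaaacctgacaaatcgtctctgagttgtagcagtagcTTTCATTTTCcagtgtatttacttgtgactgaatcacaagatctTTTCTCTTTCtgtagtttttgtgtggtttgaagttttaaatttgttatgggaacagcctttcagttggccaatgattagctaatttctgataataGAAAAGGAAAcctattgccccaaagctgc
Ifi207: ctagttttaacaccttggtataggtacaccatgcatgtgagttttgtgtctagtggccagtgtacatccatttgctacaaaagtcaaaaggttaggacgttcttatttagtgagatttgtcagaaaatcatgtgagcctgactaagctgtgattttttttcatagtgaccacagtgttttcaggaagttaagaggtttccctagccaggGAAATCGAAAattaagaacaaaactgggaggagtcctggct
Mndal: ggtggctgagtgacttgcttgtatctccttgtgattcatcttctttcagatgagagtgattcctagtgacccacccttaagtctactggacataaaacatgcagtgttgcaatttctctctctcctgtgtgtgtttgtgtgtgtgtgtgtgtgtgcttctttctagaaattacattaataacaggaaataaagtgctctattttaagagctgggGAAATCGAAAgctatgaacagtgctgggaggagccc
Tgtp2: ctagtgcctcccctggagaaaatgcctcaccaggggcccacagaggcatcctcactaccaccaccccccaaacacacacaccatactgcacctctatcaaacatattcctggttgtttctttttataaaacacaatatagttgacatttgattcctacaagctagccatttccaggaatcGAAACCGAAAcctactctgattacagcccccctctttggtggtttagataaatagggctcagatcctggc

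Secreted signals moved in both directions. In a list of inflammatory cytokines and the NF-kB pathway, 5 of 40 tested members were higher and 2 lower. The list median was 1.25, and 0.445% of all genes tested were higher and 0.811% lower. Ccl12, a monocyte chemoattractant, had 2447, 2849 and 820 CPM in MLC and 118 and 168 CPM in NoTx (log2 fold change 3.83, SE 0.73, edgeR adjusted p = 0.0052). Ccl7 (5.48), Ccl8 (7.56), the chemokine Cxcl16 (3.93) and the bacterial lipopeptide receptor Tlr2 (2.69) were the other 4. The lower pair was Ccl9 and the cytokine Il6, which had 9.07 and 14.4 CPM in NoTx and 0, 0 and 0.0942 in MLC. Il6 was not called without either NoTx library in turn (adjusted p = 0.099 and 0.16), nor without MLC replicate 1 or 2. The count of higher members was 1 without NoTx replicate 1 and 0 without replicate 2. Of 21 tested complement and Fc receptor genes only C3ar1, the C3a receptor, was higher (1.30, SE 0.31, adjusted p = 0.031). C3ar1 was not called without either NoTx library in turn.

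Lists of the basic cell machinery held no calls as reported. None of 33 cell cycle genes, 87 cytosolic ribosomal proteins, 24 mitochondrially encoded transcripts and 83 nuclear genes of oxidative phosphorylation was called (0 in each list, edgeR, where 1.26% of all genes tested were), with medians of -0.28, -0.01, 0.18 and -0.31. At an unadjusted p under 0.05 these lists had 1, 2, 1 and 4 genes, DESeq2 called 1, 0, 0 and 0, and limma-voom with quality weights called 1, 2, 0 and 1. Of the 83 oxidative phosphorylation genes 13 were above 0, against 53.2% of all genes tested. In 25 of them every MLC library was below both NoTx libraries and in 3 above, against 18% and 15.3% of all genes tested. Simulated 2-fold changes were recovered in 0% by edgeR, so a list without calls may still hold small changes. Of 30 immediate early and heat shock genes only Rhob, a small GTPase, was lower (-2.05, SE 0.37). Of 39 lysosome and phagocytosis genes 4 were higher, including lysozyme (Lyz2, 2.15) and cathepsin C (Ctsc, 1.88), and Ctsl was lower (-1.48, SE 0.35). Without NoTx replicate 1, Rhob, Lyz2, Ctsc and Ctsl were not called, and without NoTx replicate 2 Ctsc and Ctsl were not. Of 29 purinergic and neuron-sensing receptors P2ry12 and Adora3 alone were lower. Of 35 lineage transcription factors Sall1 and Sall3 were lower and Spic higher, the last not called without either NoTx library in turn. Spi1 (PU.1), the master factor of myeloid cells, had 26.6, 30.2 and 24.8 CPM in MLC and 18.9 and 25.7 in NoTx, and Irf8 had 317, 286 and 398 CPM against 297 and 253.

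**Figure D3:**
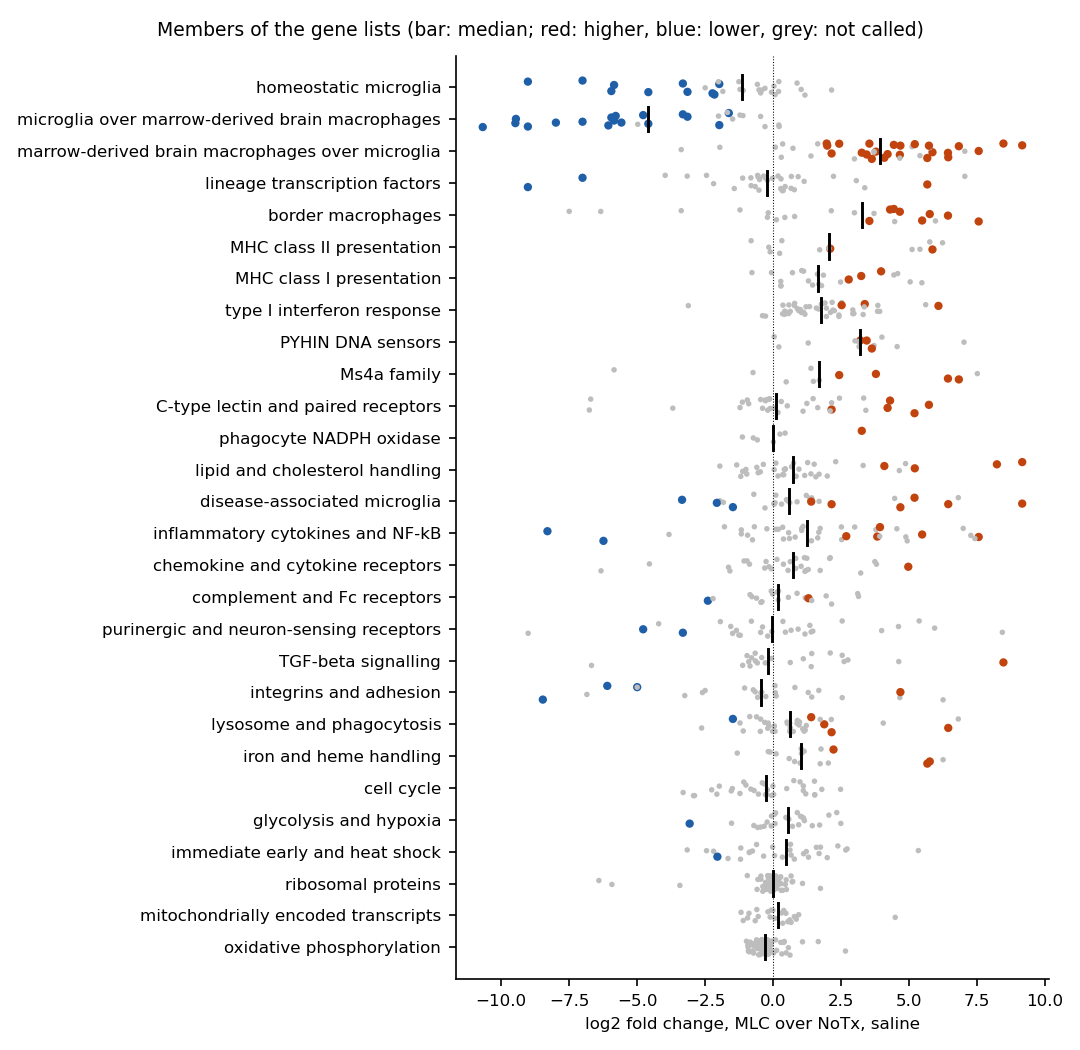
Log2 fold change of MLC over NoTx after saline (horizontal axis) for each tested member of 28 gene lists (rows), with members called higher in red, called lower in blue and not called in grey. The black bar is the median of a list, from -4.59 for microglia over marrow-derived brain macrophages to 3.93 for the reverse list, and the ribosomal list is centred at -0.01.

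Transcripts of other cells differed between the NoTx libraries. The neutrophil granule genes Camp and Ngp and the alarmins S100a8 and S100a9 were lower in MLC, which rested on NoTx replicate 2: Camp had 9.61 and 280 CPM in NoTx replicates 1 and 2 and 0.109, 0.162 and 0.151 in MLC, and S100a8 had 8.55 and 245.7 CPM in NoTx and 1.09, 0.998 and 0.301 in MLC. Chil3 and Plac8, monocyte and granulocyte transcripts, behaved alike, at 33.7 and 490 CPM and at 11 and 85.4 CPM in NoTx. Without NoTx replicate 2 the adjusted p (edgeR) of these 6 genes ranged from 0.25 (Camp) to 1 (S100a8). The summed neutrophil list was 164 to 471 CPM in MLC, 398 and 1734 in NoTx and 445 to 781 in MG. Csf3r, a receptor that microglia also express, made up most of it in MLC, in MG (441 to 777 CPM) and in NoTx replicate 1 (326 CPM), but not in NoTx replicate 2 (62.4 CPM). The summed list of blood monocytes and dendritic cells was 15.9 to 20.2 CPM in MLC, 226 and 1170 in NoTx and 76.3 to 98.0 in MG, with Ccr2, a receptor of inflammatory monocytes, at 73.1 and 307 CPM in NoTx and at most 3.04 CPM in MLC. In a bulk library, fewer cells of a type and less RNA per cell cannot be told apart. Some genes that were higher in MLC were also read in NoTx above MG, among them Clec12a, Cybb and Mndal, and their levels in NoTx replicate 2 were above those in replicate 1, as were those of Lyz2 (691 and 3037 CPM). The part of these transcripts in the fold changes was not tested. The astrocyte list summed to 39.5 to 60.6 CPM in MLC and 421 and 448 in NoTx, most of it Slc1a3 in NoTx, and the neuron list to 12.6 to 21.8 and 5.32 to 8.50 CPM.

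**Figure D4:**
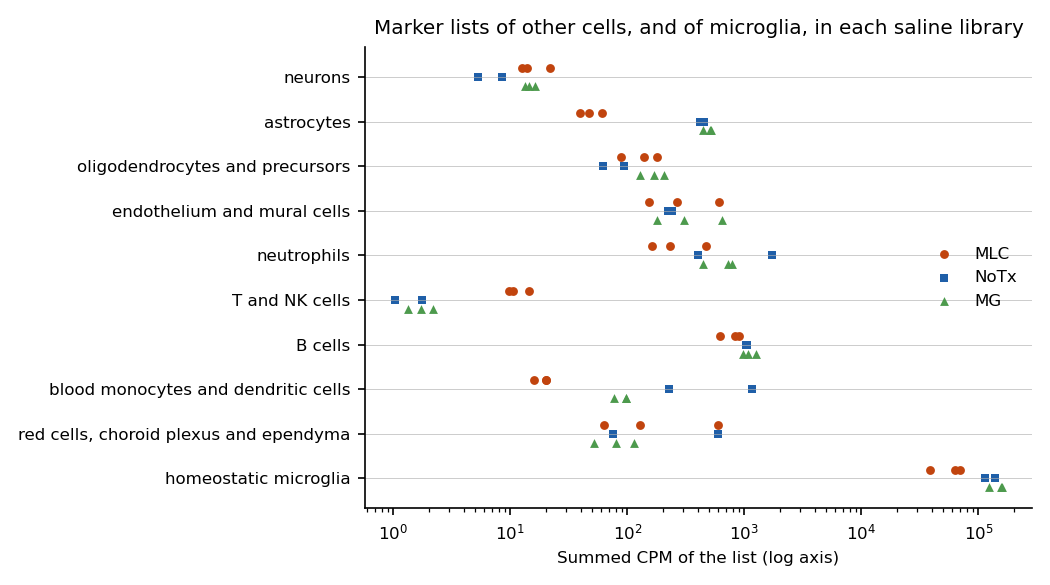
Summed CPM of marker lists of other cells and, in the bottom row, of homeostatic microglia (log axis), 1 point per saline library, with MLC as red circles, NoTx as blue squares and MG as green triangles. The list of blood monocytes and dendritic cells is 226 and 1170 CPM in NoTx and at most 20.2 CPM in MLC.

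A run of neighbouring genes was nearly silent in MLC. It was noticed after the values were seen, among the genes that were lower with names that begin Gm: a stretch of 153 RefSeq genes from Gm10340 to Gm3752, which holds 2610042L04Rik, also called takusan, a gene family of synaptic function. Of its 52 tested genes 16 were lower and 0 higher (0.811% and 0.445% of all genes tested), with a median log2 fold change of -6.28. In 49 the change was below 0, where 53.2% of all genes tested were above 0. The run was picked for its lower genes, so these counts are no test of it. The summed level of the run was 4.45, 1.89 and 4.99 CPM in MLC, 419 and 464 in NoTx and 359, 315 and 266 in MG. MLC were far below both other groups on this run. Gm3264 alone had 65.2 and 54.0 CPM in NoTx and at most 0.0565 in MLC (-10.27, SE 0.94, edgeR adjusted p = 6.9e-07). In Gm2956 and D830030K20Rik, the MLC libraries held 0 counts and NoTx held 2368 and 1061, which makes MLC at least 1361-fold and 610-fold lower against a floor of 3 counts over the group. The members are near copies, so that reads are shared among them and single genes are uncertain. Sgce and Ahr were likewise chosen after their values were seen. Sgce, epsilon-sarcoglycan, had 1.5, 1.38 and 0.527 CPM in MLC and 274 and 363 in NoTx. Ahr, the aryl hydrocarbon receptor, had 16.8, 7.47 and 14.3 CPM in MLC and 0 counts in NoTx (at least 350-fold higher). Ahr was not called without either NoTx library in turn.

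The same comparison could be read in separate libraries, those taken 5 days after kainic acid. Both comparisons came from 1 fit of all 21 libraries, so they share each gene's estimate of spread and are not independent. After seizure 1162 genes were called (6.16%). Of the 84 genes that were higher after saline 79 were higher there (94.0%, and 16.4% of the 481 called after seizure, which are 2.55% of genes tested). Of the 153 that were lower 143 were lower there (93.5%, and 21% of 681, which are 3.61%). All 237 had the same sign and 0 were called the opposite way. Without the 2 MLC libraries that repeat a code, left out after the data were seen, 381 genes were higher and 443 lower after seizure, and the shares were 89.3% of higher and 85% of lower genes. Upk1b was at -10.68 after saline and -8.62 after seizure, Sparc at -4.59 and -3.59, Ms4a7 at 6.43 and 8.68, and Apoe at 9.16 and 7.63. Those not called after seizure included the class I genes H2-D1 (3.97 after saline, 1.73 after seizure) and Tap1 (2.78, 1.55), and Fth1 (2.22, 0.84). The share also called after seizure was lower in some other fits. It was 79.9% of higher and 79.2% of lower genes with DESeq2, and 46.4% and 40.8% with limma-voom with quality weights. In the fits of only the groups compared, where each treatment was fitted apart, it was 59.8% and 47.2%. The cause of these moves was not tested. The difference between the 2 treatments was itself past the threshold in 5 genes (0.0265%), with 1529 at an unadjusted p under 0.05. Treatment and batch cannot be told apart in that difference.

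**Figure D5:**
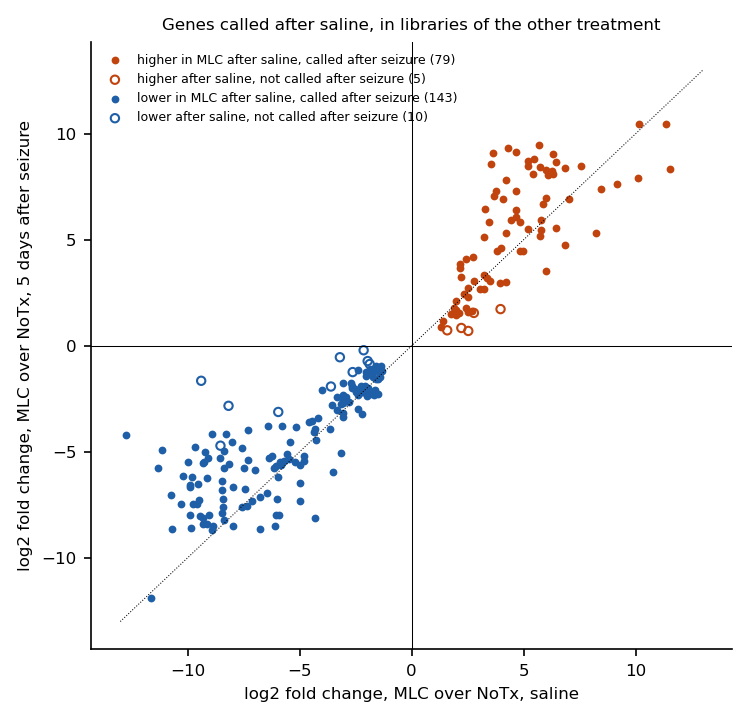
Log2 fold change of MLC over NoTx after saline (horizontal axis) and 5 days after seizure (vertical axis) for the 237 genes called after saline. Filled points were also called after seizure (79 red, 143 blue), open points were not (5 and 10), and all points have the same sign on both axes.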

How the data were processed

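Estimated counts per gene were deposited by the authors. The submitters' processing notes name STAR 2.7.10a, genome GRCm39, Trim Galore 0.6.7, featureCounts and DESeq2 1.36.0. In the 5 libraries 40.5% to 44.2% of values above 0 were fractional, and the sources used here do not name the tool behind them. Per the labels' protocols, RNA came from sorted cells and a low-input kit, with no molecular identifiers named, so count floors cover counting error only.

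Here, counts were rounded. Of 57180 genes, 18867 passed edgeR's filter by group. edgeR's robust quasi-likelihood test was fitted to all 21 libraries with TMM factors and a mean for each of 6 groups. Benjamini-Hochberg adjustment ran over all genes of a comparison. Calls needed an adjusted p under 0.05 and no minimum fold. The SE is the absolute log2 fold change over the square root of F. R 4.3.3, edgeR 4.0.16, limma 3.58.1 and DESeq2 1.42.0 were used. Comparisons with MG share libraries with MLC against NoTx and are given as values only.

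Genes named were Csf1r, Cx3cr1, the 12 largest calls per direction (no overlap, mean log2 CPM 4 or more), members of 38 lists, and genes of the treatment difference. The comparison and the lists were chosen with earlier results of these data known. Others are said to be chosen after their values were seen. Lists count tested members only. On simulated data (18016 genes, 200 changed), changes of 2-fold were recovered in 0%, of 4-fold in 6.45% and of 8-fold in 32.8% in the saline comparison by edgeR, with 1 false of 27 calls. DESeq2 had 144 false of 214 and limma-voom with quality weights 3 of 23. The simulated counts were drawn with edgeR's own estimates of spread, so they are no neutral comparison of the tools. Alternatives were RLE scaling, DESeq2, limma-voom with quality weights, no filter, fewer libraries in the fit, a replicate block, GC-content correction, thinning to 6.57 M counts leaving out each library and, added after seeing the data, leaving out the MLC seizure libraries that repeat a code. Results for some genes are not reported here.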

Additional observations from a re-analysis of the deposited data

Results flagged for a closer look

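In 5 genes the log2 fold change of MLC over NoTx was higher after seizure than after saline, by a test of the difference itself (edgeR, an interaction of treatment and kind of cell). The log2 difference was 5.45 for the PYHIN gene Mndal (SE 0.83, adjusted p = 0.02) and 5.06 for Cd38, an enzyme that consumes NAD (SE 0.84, adjusted p = 0.02). It was 8.33 for Gm21188, 11.31 for Gm36161 and 7.90 for 4930523C07Rik. After saline Mndal was at 178 ± 81.8 CPM (SD, n = 3) for MLC but 14.4 ± 11.5 (n = 2) for NoTx. After seizure it was at 224 ± 67.5 (n = 6) and 0.392 ± 0.167 (n = 3). Cd38 had 78.6 ± 22.3 and 6.78 ± 0.334 CPM after saline, then 85.2 ± 21 and 0.234 ± 0.224 CPM after seizure. In both genes MLC were alike after either treatment and NoTx differed. Gm21188, Gm36161 and 4930523C07Rik had 41.2 ± 36.3, 22.6 ± 24.9 and 15.5 ± 8.94 CPM in the saline NoTx libraries, but 0.247 ± 0.0322, 0.0152 ± 0.0263 and 0.0433 ± 0.0377 CPM in those taken after seizure. MLC had 38.6 ± 33.1, 9.07 ± 5.36 and 19.1 ± 6.26 CPM of them after saline. After seizure MLC had 74.6 ± 56.7, 28.4 ± 15.9 and 14.5 ± 8.23 CPM. After saline the MLC means of Gm21188 and Gm36161 were thus below those of NoTx. No gene was called without MLC saline replicate 1 or 3 or without NoTx saline replicate 2 (0 in each). Without the 2 MLC seizure libraries that repeat a code, Cd38 and 4930523C07Rik were not called, and 3 of the 5 genes were. Treatment and batch cannot be told apart here.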

How the results depend on the processing

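After saline, DESeq2 called 348 genes higher and 313 lower, limma-voom with quality weights 658 and 884, the fit of only the groups compared 264 and 235, and the fit of the 8 saline libraries 421 and 470. Calls that were higher made up 35.4% of all calls as reported, and 52.6%, 42.7%, 52.9% and 47.3% in these fits. No gene called as reported turned sign in any of the fits. Leaving out 1 library gave 13 to 64 higher and 62 to 90 lower genes, and 32 of 95 called genes named here held in every fit. Without a NoTx library that group has 1 library, assumed to vary like the other groups. RLE scaling, no low-count filter, GC-content correction and thinning stayed within 1.5 times.

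With the replicate number as a block, 91 genes were higher and 132 lower after saline, and 71 and 109 of the genes reported were among them. Same-numbered libraries deviated with correlations of -0.061 and 0.104, and the labels do not tie the numbers to litters or days, so the numbers were not taken as pairs. In the block fit 360 genes were lower after seizure and 0 differed between treatments.

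After seizure, DESeq2 called 1778 genes higher, the fit of only the groups compared 244 lower, and leaving out 1 library gave 283 to 498 higher and 423 to 695 lower. Without the 2 MLC libraries that repeat a code it was 443 lower, with 3 genes differing between treatments. The difference between treatments had 208 genes with DESeq2, 40 with limma-voom with quality weights, 9 with no filter, 23 in the fit of only the groups compared, and 0 to 9 with 1 library left out. The cause of these moves was not tested.

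Genes not called turned direction in places: Csf1r was 0.00 without MLC replicate 3 and 2.33 without NoTx replicate 1. Tmem119 was -0.12 with GC-content correction, -0.36 without MLC replicate 3, -0.57 without NoTx replicate 2 and 1.96 without NoTx replicate 1. Spi1 was -0.20 with GC-content correction, and Irf8 was -0.04 with the replicate block. Of 2-fold changes simulated with edgeR's own estimates of spread, edgeR recovered 0%, limma-voom with quality weights 1.41% and DESeq2 9.86%.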
